A study of Mus musculus with 8 samples.

Results

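The measurements concern the Piezo and TRP channel genes of somatosensation in the geniculate ganglion, the facial nerve ganglion whose cells are taste neurons, serving the front of the tongue and the palate, and somatosensory neurons serving the outer ear. The 8 genes were chosen by name as known mechanosensors and thermosensors of sensory neurons: Piezo1, Piezo2, Trpv1, Trpv2, Trpv4, Trpa1, Trpm8 and Trpm3. Of these, 6 are among the 15110 genes of the deposited table, and Trpv1 and Trpm8 were not analysed here. Whole ganglia from adult C57Bl/6 mice were measured by RNA-seq in 4 Egr4-/- mice and 4 Egr4+/+ wild type littermates, with 1 library per mouse. Egr4 belongs to the early growth response family of zinc finger transcription factors, and the labels give neither the age beyond adult nor how the allele was made. Since all cells of the ganglion went into each library, each level mixes neurons with glia, vessels and sheath, and fewer cells of a type and less RNA per cell cannot be told apart.

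Piezo channels are large membrane proteins that open when the membrane is stretched, and Piezo2 is the main light touch and proprioception channel of mouse sensory neurons. TRP channels are cation channels, several of which open with heat, cold, osmotic stress or irritant chemicals. Piezo1 and Trpv4 are best known from vessels, epithelia and connective tissue, so in a whole ganglion their transcripts need not come from neurons.

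The libraries held 30849310 to 54255872 counts. Genotype was tested with edgeR's quasi-likelihood test over all 15110 genes. Egr4 itself stood at 0.444, 1.22, 0.940 and 1.04 CPM (counts scaled to library size) in Egr4-/- libraries 1 to 4, against 1.54, 3.14, 0.925 and 3.24 CPM in wild type libraries 1 to 4, so the counted transcript was still found in Egr4-/- ganglia and the groups overlap at wild type library 3. Several libraries stood apart in genes of other cell types. All 10 measured endothelial markers and 7 of 8 measured pericyte and smooth muscle markers were highest in Egr4-/- library 2. The mean of 7 skeletal muscle markers was 7.08 log2 CPM in Egr4-/- library 4 and at most 2.36 in the other 7 libraries. Calb1, a calcium-binding protein abundant in Purkinje cells and in some sensory neurons, stood at 151, 37.7, 598 and 593 CPM in Egr4-/- libraries. In wild type libraries it stood at 27.4, 26.04, 19.3 and 467 CPM. The mean of the 6 Purkinje cell and central neuron markers, Calb1 among them, was 2.34, 2.42, 5.63 and 6.57 log2 CPM in Egr4-/- libraries. In wild type libraries that mean was 2.55, 2.49, 2.53 and 3.32 log2 CPM. All 15 pan-neuronal markers and 7 of 8 gustatory neuron markers were measured. P2rx2, an ATP receptor subunit of taste neurons, was the most abundant of the gustatory ones. As 7 of 8 skeletal muscle and 9 of 10 choroid plexus and meningeal markers were measured too, these counts cannot check the tissue label.

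Among the 6 genes the ganglion expressed Trpv2 far above the others, and Piezo2 was the gene with the smallest p for genotype, lower in 4 of 4 Egr4-/- libraries than in 3 of 4 wild type libraries. None of the 6 passed an adjusted p of 0.05, at which 1 gene of 15110, or 0.00662%, was called. The likelihood ratio test of edgeR, DESeq2 and limma-voom also called 0 of the 6. At an unadjusted p of 0.05, Piezo2 passed and the other 5 did not, while 731 of all genes, or 4.84%, passed. Of all genes, 2.90% passed as lower and 1.94% as higher in Egr4-/- ganglia. A fitted log2 fold change of 1 or more in size was reached by 1 of the 6, Trpv4, and by 6.37% of all genes. The fitted change was positive for 3 genes (Piezo1, Trpv4, Trpm3) and negative for 3 (Piezo2, Trpv2, Trpa1). For none of the 6 did the 2 groups of libraries stand apart without overlap, and 2.62% of all genes had such groups.

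Promoters show how differently the genes begin, and those of the 4 measured genes with a window in the RefSeq table are given first, from GRCm38.p6, as 250 bases before to 50 after the annotated start, on the gene's strand. The dinucleotide CG is in capitals. Trpv2 is on chr11:62574236-62574535 (plus strand), Piezo1 on chr8:122551280-122551579 (minus strand), Trpv4 on chr5:114658372-114658671 (minus strand) and Trpm3 on chr19:22138796-22139095 (plus strand); Trpv2 has 3 such windows and Trpm3 has 2, of which the first is shown.
Trpv2: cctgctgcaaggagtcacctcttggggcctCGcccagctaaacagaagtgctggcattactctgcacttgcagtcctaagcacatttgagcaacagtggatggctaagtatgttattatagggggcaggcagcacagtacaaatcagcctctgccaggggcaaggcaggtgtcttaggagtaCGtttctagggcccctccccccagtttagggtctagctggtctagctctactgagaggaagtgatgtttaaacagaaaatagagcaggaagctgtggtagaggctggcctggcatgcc
Piezo1: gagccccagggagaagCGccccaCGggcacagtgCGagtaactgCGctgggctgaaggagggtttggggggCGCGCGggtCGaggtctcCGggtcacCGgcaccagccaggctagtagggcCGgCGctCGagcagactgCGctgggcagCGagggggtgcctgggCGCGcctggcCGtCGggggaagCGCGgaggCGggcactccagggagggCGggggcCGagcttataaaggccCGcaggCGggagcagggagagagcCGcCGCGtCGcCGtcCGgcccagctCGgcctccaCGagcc
Trpv4: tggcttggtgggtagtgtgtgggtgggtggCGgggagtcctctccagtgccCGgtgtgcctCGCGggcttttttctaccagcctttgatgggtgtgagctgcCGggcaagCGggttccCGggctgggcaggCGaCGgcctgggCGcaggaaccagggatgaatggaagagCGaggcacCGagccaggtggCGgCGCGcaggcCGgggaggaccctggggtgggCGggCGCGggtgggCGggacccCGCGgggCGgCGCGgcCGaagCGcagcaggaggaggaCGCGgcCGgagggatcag
Trpm3: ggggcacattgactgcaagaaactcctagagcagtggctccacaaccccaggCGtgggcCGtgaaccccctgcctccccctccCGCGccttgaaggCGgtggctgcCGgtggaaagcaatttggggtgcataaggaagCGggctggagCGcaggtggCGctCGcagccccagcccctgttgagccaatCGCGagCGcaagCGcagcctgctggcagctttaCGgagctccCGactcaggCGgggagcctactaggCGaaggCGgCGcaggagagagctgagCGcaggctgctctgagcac
The Trpv2 window is 53.0% G or C with 2 CG dinucleotides, the Piezo1 window 75.0% with 34, the Trpv4 window 73.0% with 30 and the Trpm3 window 66.7% with 21. Over 32851 windows of 27025 genes the medians were 52.7% and 7 CG dinucleotides, so the Trpv2 window is poor in CG and the other 3 are rich in it. The EGR motif GCGTGGGCG, which 0.612% of all windows hold on either strand, and its variant GCGGGGGCG, held by 2.91%, were found in none of the 9 windows of 6 channel genes, Trpv1 and Trpm8 included. The letters TATAAA, chosen after seeing the sequences, occur on either strand of 3 of the 9 windows and of 13.6% of all windows. The 3 are the Piezo1 window, 24 bases before the start, the Trpm8 window, 30 bases before it, and the second Trpv2 window.

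Piezo2, the touch channel, was lower in Egr4-/- ganglia (chromosome 18, 63010213 to 63387183 in mm10, 54 merged exons). Its counts were 1132, 938, 961 and 907 in Egr4-/- libraries 1 to 4, against 2057, 1270, 1848 and 790 in wild type libraries 1 to 4. Scaled for library size this was 23.96, 21.95, 17.7 and 21.1 CPM in Egr4-/- libraries, against 42.3, 39.5, 39.7 and 17.5 CPM in wild type libraries. The Egr4-/- libraries lie close together, 3 wild type libraries lie well above all 4 of them, and wild type library 4 lies just below all 4. The coefficient of variation was 12.3% in Egr4-/- and 33.3% in wild type ganglia. The fitted log2 fold change was -0.72 (SE 0.27, 95% interval -1.32 to -0.11). By edgeR's quasi-likelihood test its unadjusted p was 0.0259 and its adjusted p 0.924, so it did not pass. A permutation test of the same 8 values, two-sided and exact over 70 arrangements, gave p = 0.143, and for the other 5 genes p lay between 0.343 and 0.6.

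How much Piezo2 differed rested on wild type library 4. Without it the log2 fold change was -0.94, and the edgeR unadjusted p was 0.0006 with an adjusted p of 0.469. The exact permutation test then gave p = 0.0286, the smallest that its 35 arrangements allow, and 0.171 after adjustment over the channel genes. Wild type library 4 stands out by its own Piezo2 value, and the other wild type libraries lie above all Egr4-/- libraries. Leaving it out thus fixed the permutation p and lowered the edgeR p, so neither is support for a difference. Leaving out library 4 of both genotypes gave -0.94 as well. Over each library left out in turn the value stayed between -0.94 and -0.61, with an unadjusted p under 0.05 in 4 of 8 cases and no adjusted p under 0.05. The mean of 10 myelinating Schwann cell markers was 8.81, 9.30, 9.56 and 8.49 log2 CPM in Egr4-/- libraries and 9.58, 9.59, 9.76 and 8.80 in wild type libraries, lowest in library 4 of each genotype. The summed FPKM (counts scaled to gene length and library size) of 15 pan-neuronal markers was 5577, 3317, 6278 and 7932 in Egr4-/- and 5059, 3567, 5987 and 7671 in wild type libraries. Among wild type libraries, library 4 was thus low in Piezo2 and in Schwann cell markers and high in Calb1 and the pan-neuronal sum, and the part of its cell mix in the Piezo2 value was not tested.

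**Figure D1:**
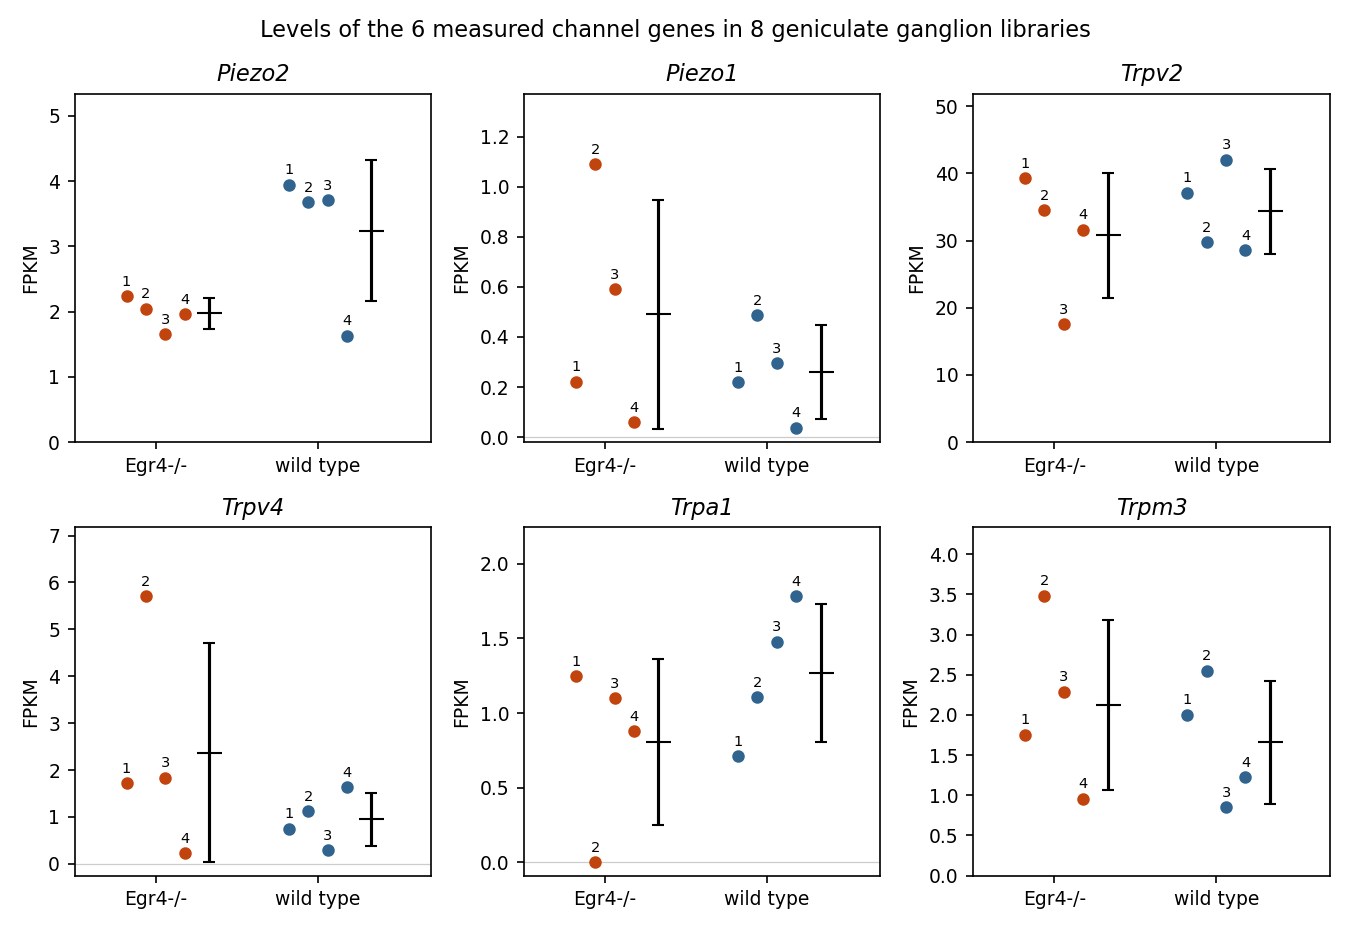
Level of each of the 6 channel genes in FPKM in 4 Egr4-/- libraries (left of each panel) and 4 wild type libraries (right), numbered by replicate, with mean and SD. Piezo2 is at 1.65 to 2.23 FPKM in the Egr4-/- libraries and at 3.68 to 3.95 in wild type libraries 1 to 3, while Trpa1 has no count in Egr4-/- library 2.

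Piezo1, the stretch channel of vessels and red cells, was the lowest of the 6 (chromosome 8, 122481698 to 122551329, 51 merged exons, 1409 bases of exon shared with Ctu2 on the other strand, so its reads and those of Ctu2 cannot be told apart there). Its level was 0.222, 1.09, 0.590 and 0.0593 FPKM in Egr4-/- libraries 1 to 4, against 0.220, 0.488, 0.296 and 0.0378 FPKM in wild type libraries 1 to 4. Within each genotype library 2 was the highest and library 4 the lowest, and the groups overlap. The log2 fold change of 0.92 (SE 0.90, 95% interval -1.09 to 2.92, edgeR adjusted p = 0.924) was 0.15 without Egr4-/- library 2, which held 383 Piezo1 counts. The ratio of Piezo2 to Piezo1 in FPKM was 10.1, 1.88, 2.80 and 33.1 in Egr4-/- and 17.9, 7.54, 12.5 and 43.2 in wild type libraries. Piezo2 was therefore the higher of the Piezo genes in 8 of 8 libraries.

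Trpv2, a channel found in medium and large sensory neurons and in macrophages, was the most abundant (chromosome 11, 62574486 to 62600305, 16 merged exons). It stood at 39.3, 34.5, 17.6 and 31.6 FPKM in Egr4-/- libraries, against 37.1, 29.8, 42.0 and 28.6 FPKM in wild type libraries. Only Egr4-/- library 3 lies below the wild type range. The log2 fold change was -0.16 (SE 0.24, 95% interval -0.70 to 0.38, edgeR adjusted p = 0.935). Without Egr4-/- library 3 it was 0.032. Trpv2 made up 84.5%, 73.7%, 70.2% and 88.6% of the summed FPKM of the 6 genes in Egr4-/- libraries and 82.9%, 76.9%, 86.4% and 81.9% in wild type libraries.

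Trpv4, an osmotic and warmth channel of epithelia, endothelium and cartilage, varied most among the Egr4-/- libraries, with a coefficient of variation of 98.6% there and 60.3% in wild type (chromosome 5, 114622154 to 114658421, 16 merged exons). Its level was 1.73, 5.70, 1.83 and 0.223 FPKM in Egr4-/- libraries, against 0.746, 1.13, 0.287 and 1.63 FPKM in wild type libraries. Egr4-/- libraries 1 to 3 lie above all 4 wild type libraries and Egr4-/- library 4 lies below all of them. The log2 fold change was 1.32 (SE 0.82, 95% interval -0.50 to 3.14, edgeR adjusted p = 0.924). It was 0.41 without Egr4-/- library 2 and 2.10 without library 4 of both genotypes, where the unadjusted p was 0.0109 and the adjusted p 0.769 in the same test. Endothelial markers summed to 196, 587, 147 and 122 FPKM in Egr4-/- libraries and 139, 159, 129 and 144 FPKM in wild type libraries, with none of the 10 at 0. Pericyte and smooth muscle markers summed to 71.2, 409, 58.1 and 46.5 FPKM in Egr4-/- and 55.8, 55.5, 45.0 and 65.1 FPKM in wild type libraries. The 9 measured choroid plexus and meningeal markers summed to 543, 1135, 367 and 219 FPKM in Egr4-/- and 271, 333, 186 and 211 FPKM in wild type libraries, with Kcne2 of that list at 0 in at least 1 library. Their part in the Trpv4 and Piezo1 levels of Egr4-/- library 2 was not tested.

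Trpa1, the irritant receptor of nociceptors, was low (chromosome 1, 14872648 to 14918862, 27 merged exons). Its counts were 251, 0, 254 and 161 in Egr4-/- libraries, against 147, 152, 293 and 343 in wild type libraries. No read was counted in Egr4-/- library 2, where 3 counts would correspond to 0.0702 CPM, so a level under that was not detectable there. In FPKM it stood at 1.25, 0, 1.098 and 0.877 in Egr4-/- and 0.709, 1.11, 1.48 and 1.78 in wild type libraries, and the groups overlap. The log2 fold change was -0.66 (SE 1.01, 95% interval -2.91 to 1.598, edgeR adjusted p = 0.936) and -0.24 without Egr4-/- library 2. Trpm3, a heat-activated channel that also responds to the steroid pregnenolone sulfate, lies on chromosome 19 from 22139117 to 22989884 with 30 merged exons and shares 252 and 351 bases with 2 genes on the other strand. It stood at 1.76, 3.48, 2.29 and 0.957 FPKM in Egr4-/- and 2.00, 2.55, 0.849 and 1.23 FPKM in wild type libraries, without a separation of the groups. Its log2 fold change was 0.36 (SE 0.43, 95% interval -0.60 to 1.31, edgeR adjusted p = 0.926), and 0.00 without Egr4-/- library 2.

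In order of mean FPKM over all 8 libraries the genes ran Trpv2 at 32.6, Piezo2 at 2.61, Trpm3 at 1.89, Trpv4 at 1.66, Trpa1 at 1.04 and Piezo1 at 0.375. Trpv2 was above Piezo2 in all 8 libraries, by 12.5 times in the means, and their ranges do not overlap. All the lower neighbours overlap: Piezo2 was above Trpm3 in 6 of 8 libraries, of which 2 were Egr4-/- and 4 wild type. Trpm3 was above Trpv4 in 6, Trpv4 above Trpa1 in 5 and Trpa1 above Piezo1 in 7 of 8 libraries, so the order of neighbours below Trpv2 is within their spread. Trpv2 ranked above 81.6% of the genes in the table and Piezo1 above 4.88%.

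**Figure D2:**
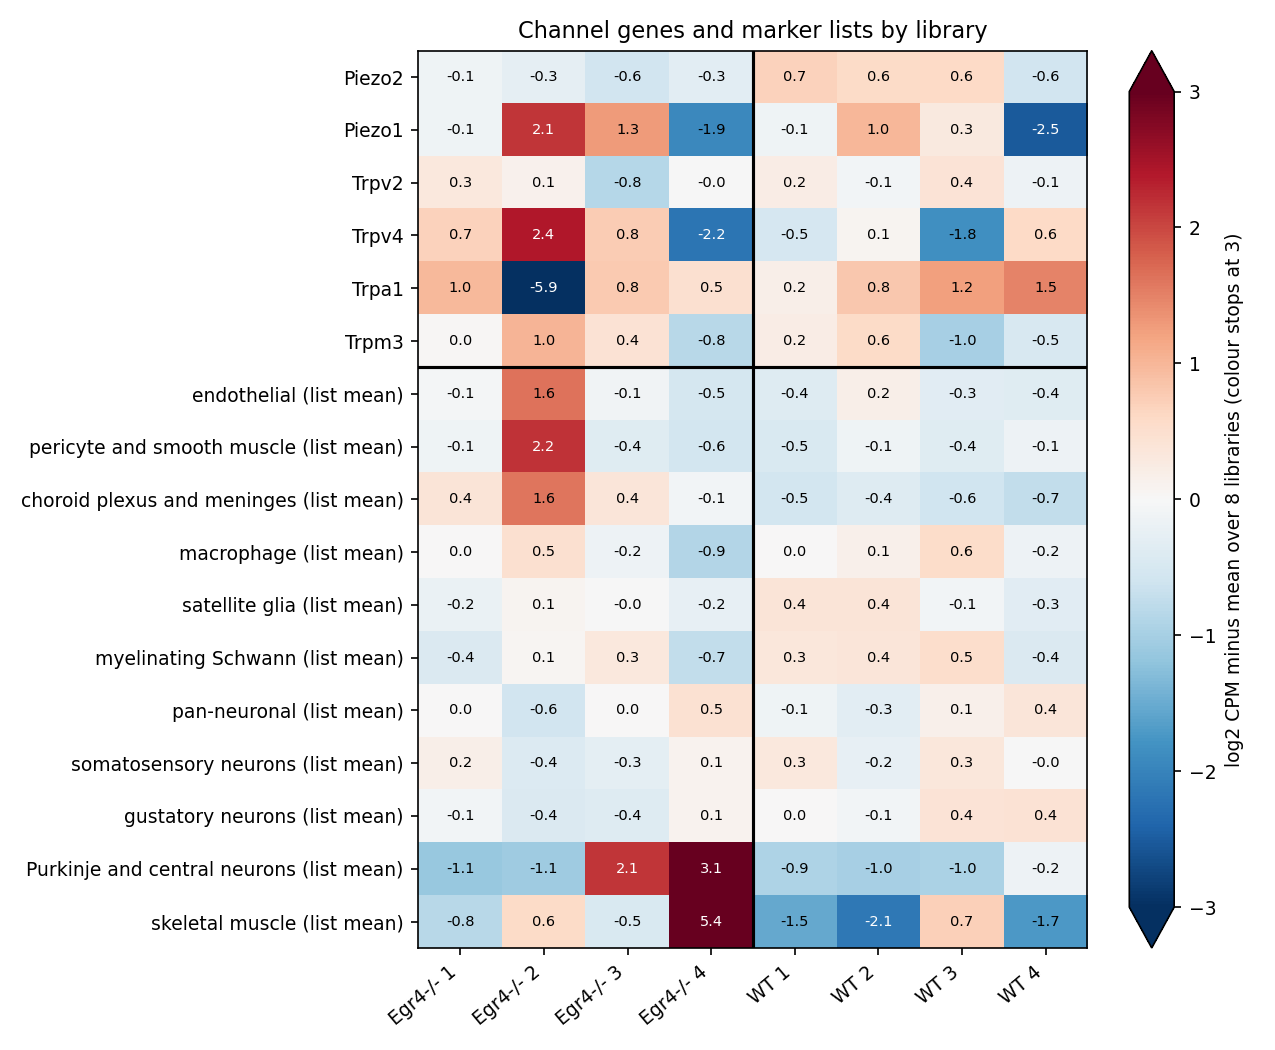
Heat map of log2 CPM relative to each row's mean for the 6 channel genes and for the means of cell type marker lists, with the Egr4-/- libraries left of the wild type libraries. Egr4-/- library 2 is high in Piezo1, Trpv4 and Trpm3 and low in Trpa1. It is also high in the endothelial, the pericyte and smooth muscle, and the choroid plexus and meningeal lists.

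Across the 8 libraries, Trpv4 and Trpm3 had a Pearson r of 0.82 (Spearman rho 0.71, exact permutation p = 0.0129 for r and 0.0576 for rho), which was 0.194 for r after adjustment over the 15 pairs of the 6 genes. Without Egr4-/- library 4 and wild type library 3, the 2 farthest from the median of Trpv4, r was 0.50. None of the 15 pairs passed an adjusted p of 0.05. The genes most like each channel gene in log2 CPM over the 8 libraries, among 13758 genes, were Edil3, Tsc22d2 and Kcnk13 for Piezo2 (Pearson r 0.98, 0.95 and 0.95), given as a description. Edil3, a secreted integrin-binding protein, stood at 101, 82.0, 80.4 and 83.6 CPM in Egr4-/- and 175, 150, 172 and 80.2 CPM in wild type libraries. The log2 fold change of Edil3 was -0.73, given with no test because Edil3 was picked for its likeness to Piezo2 over these same libraries. Its low value in wild type library 4 follows from that choice as well and is no separate observation. The best match was Mtpn for Piezo1 (0.98), Zfhx3 for Trpv2 (0.96), Cyp26b1 for Trpv4 (0.98) and Col9a2 for Trpm3 (0.98). For Trpa1 it was Ralgapa2 at 0.99 (Spearman rho 0.60), and that r was 0.88 without Egr4-/- library 2 and wild type library 4. Without those libraries the r of the next matches of Trpa1, Cux2 and Marveld3, fell from 0.98 each to 0.57 and 0.26.

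Related genes were counted in lists of other TRP channels, other mechanosensitive channels, channel modulators and somatosensory neuron genes. Of 22 other TRP channels 12 were measured, of which 8 had a positive and 4 a negative log2 fold change, with a median of 0.16 where that over all genes was 0.01, and 0 had an unadjusted p under 0.05. Mcoln1, the lysosomal channel mucolipin, was the closest to passing at 0.31 (edgeR unadjusted p = 0.0945, adjusted p = 0.924). Of 17 other mechanosensitive channels 16 were measured, 8 positive and 8 negative, with a median of -0.03 and again 0 with an unadjusted p under 0.05. Among them the log2 fold change of Kcnk4, the potassium channel TRAAK, was -0.93 with an SE of 0.66. That of Tmem63a, an osmosensitive channel, was -0.45 with an SE of 0.45.

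Of 21 modulators 18 were measured, 9 positive and 9 negative with a median of -0.01, and Pirt was the 1 with an unadjusted p under 0.05. That 1 of 18 is near the 4.84% of all genes that passed in either direction. Pirt is a membrane protein of sensory neurons that binds phosphoinositides and alters the gating of TRPV1 and TRPM8 in mice. It lies on chromosome 11 from 66911991 to 66928700 with 2 merged exons. Its level was 69.3, 53.8, 61.2 and 61.4 CPM in Egr4-/- libraries, against 91.0, 89.8, 123 and 84.6 CPM in wild type libraries. Every Egr4-/- library lies below every wild type library, a separation that 2.62% of all genes had. The means were 61.4 ± 6.35 CPM in Egr4-/- and 97.1 ± 17.4 CPM in wild type ganglia (SD, n = 4 each). The genotype effect on the log2 scale was -0.66 (SE 0.16, 95% interval -1.02 to -0.30). By edgeR's quasi-likelihood test the unadjusted p was 0.00221 and the adjusted p 0.924, so Pirt did not pass over all genes. In 19 alternative settings its log2 fold change stayed between -0.73 and -0.53, its unadjusted p stayed under 0.05 in all 19, and its adjusted p lay between 0.113 and 1.00.

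**Figure D3:**
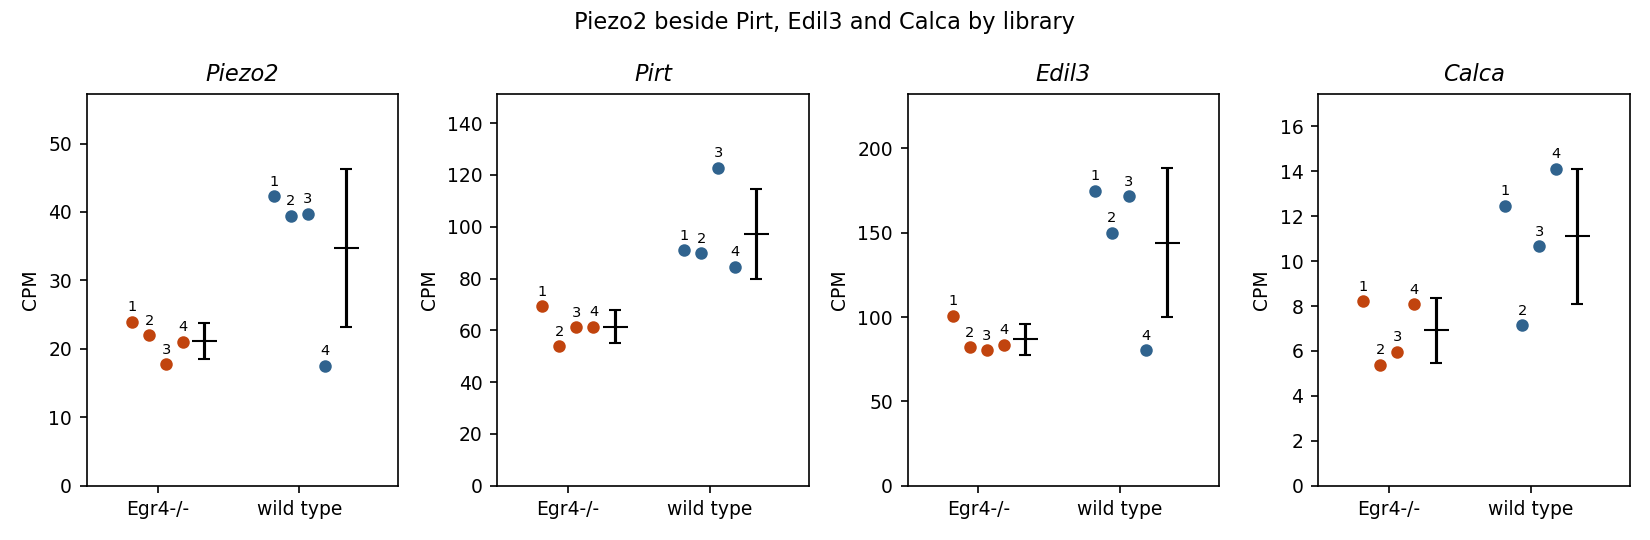
CPM of Piezo2, Pirt, Edil3 and Calca in 4 Egr4-/- libraries (left of each panel) and 4 wild type libraries (right), numbered by replicate, with mean and SD. Wild type library 4 is down with the Egr4-/- libraries in Piezo2 and Edil3 and above all of them in Pirt and Calca. Edil3 was picked for its likeness to Piezo2 over these libraries, so its pattern follows from that choice.

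Of 20 somatosensory neuron genes 18 were measured, 12 of them negative and 6 positive, with a median of -0.21. An unadjusted p under 0.05 was reached by 2, both lower in Egr4-/- ganglia, where 2.90% of all genes were lower at that level. Calca, which encodes the neuropeptide CGRP, stood at 8.21, 5.38, 5.97 and 8.08 CPM in Egr4-/- and 12.5, 7.15, 10.7 and 14.1 CPM in wild type libraries. Wild type library 2 lies within the Egr4-/- range and the other 3 above it. Its log2 fold change was -0.68 (edgeR unadjusted p = 0.0438, adjusted p = 0.924), and that of Gfra2, a neurturin receptor, was -0.78 (edgeR unadjusted p = 0.0474, adjusted p = 0.924). Scn10a, the nociceptor sodium channel, had 1.76, 0, 0.0553 and 0.255 CPM in Egr4-/- and 3.85, 1.21, 4.71 and 4.41 CPM in wild type libraries. Its groups overlap at Egr4-/- library 1 and wild type library 2, and the adjusted p was 0.924 in edgeR's test.

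Gustatory neuron markers are given beside Piezo2, Pirt and Calca: of the 7 measured, 5 had a negative and 2 a positive log2 fold change, with a median of -0.59. An unadjusted p under 0.05 was reached by 3 of them, P2rx2 and P2rx3 included, all with lower means in Egr4-/- ganglia. Of all genes, 2.90% were lower at that level, and 0 of the 7 markers passed an adjusted p of 0.05. P2rx2 stood at 101, 67.9, 73.8 and 97.9 CPM in Egr4-/- libraries, against 150.3, 86.7, 151 and 160 CPM in wild type libraries. Wild type library 2 lies within the Egr4-/- range, and wild type library 4, the lowest in Piezo2, is the highest in P2rx2. The log2 fold change of P2rx2 was -0.69 (SE 0.22, edgeR unadjusted p = 0.0110, adjusted p = 0.924). The list's mean was 4.03, 3.69, 3.72 and 4.23 log2 CPM in Egr4-/- and 4.14, 4.04, 4.52 and 4.55 in wild type libraries, none of its measured markers was at 0, and its part in the Piezo2, Pirt and Calca values was not tested.

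**Figure D4:**
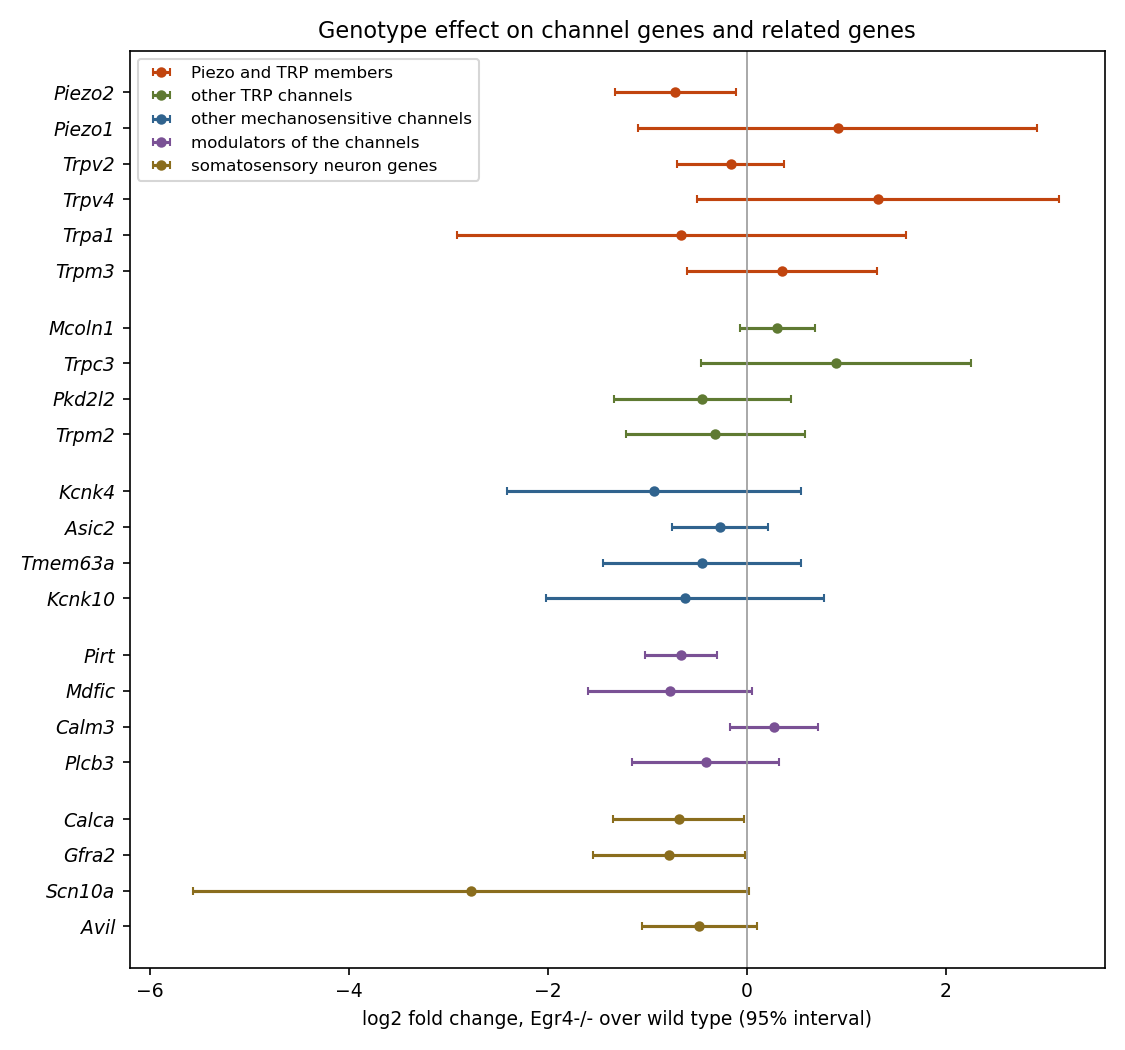
Log2 fold change of Egr4-/- over wild type with its 95% interval from edgeR for the 6 channel genes and for the genes named from the lists. The intervals of Piezo2, Pirt, Calca and Gfra2 lie below 0, and those of the other genes shown cross 0.

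**Figure D5:**
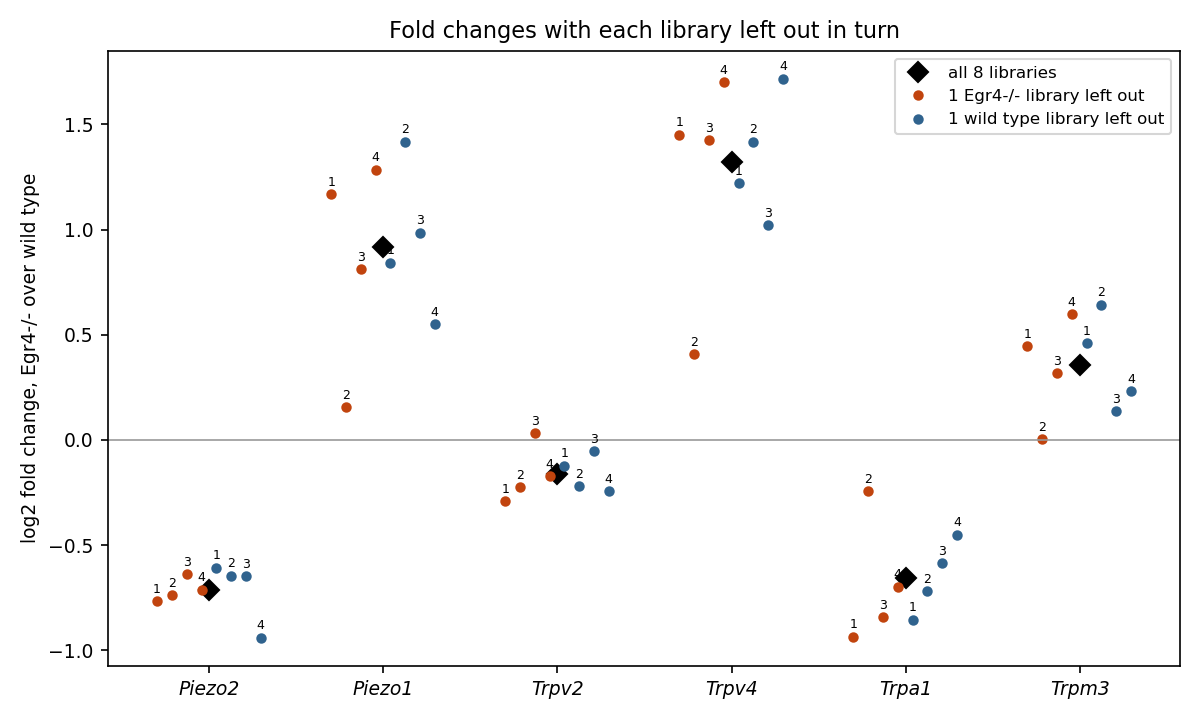
Log2 fold change of each of the 6 channel genes with all 8 libraries and with each library left out in turn, Egr4-/- libraries before wild type libraries. Piezo2 stays between -0.94 and -0.61, while Piezo1, Trpv4 and Trpm3 come closest to 0 without Egr4-/- library 2.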

How the data were processed

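Total RNA of whole ganglia (1 ng, RIN above 8) was amplified with the SMART-Seq kit, tagged with the Nextera XT kit and read as 150 bp pairs, per the labels' protocols. Build mm10, STAR 2.5, Subread 1.5.1 with featureCounts, FastQC 0.11.5 and edgeR 3.12.1 are listed in the submitters' processing notes. The authors deposited raw counts per gene, their log2 FPKM values and, per gene, their own comparison as a fold score, its log2 value, p-value and false discovery rate. In the authors' deposited table the false discovery rates of the 6 measured channel genes ran from 0.870 (Piezo2) to 0.992. The notes name no strand step or molecular identifier, so opposite-strand genes cannot be told apart. Raw counts with TMM factors went into edgeR 4.0.16 under R 4.3.3 (quasi-likelihood, robust, legacy deviances, genotype as only factor). Benjamini-Hochberg adjustment was over 15110 genes, none of which the filter removed. SE is the fitted change over the root of the F statistic. CPM and FPKM were computed from the counts and deposited lengths. They differed from deposited log2 FPKM by at most 0.0264 over 41 values with 100 or more counts. P-values set the genotype difference against the spread between libraries. With 1 library per mouse, mouse, dissection and amplification cannot be told apart in that spread. Single values were compared by two-sided exact permutation of log2 CPM (prior count 2). The members and gene lists were chosen with earlier results of these data known. Genes were named by rule: the measured members, the 3 genes most like each in log2 CPM, the 4 smallest p of each list, Egr4 and the most abundant marker of each cell type. The text gives the named genes it needs, and 1 list gene is not reported here by name. Alternatives used RLE, library size alone, no filter, a likelihood ratio test, DESeq2 1.42.0, limma-voom 3.58.1, another prior, replicate block, left-out libraries and, chosen after seeing the data, newer edgeR deviances.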

Additional observations from a re-analysis of the deposited data

Results flagged for a closer look

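In 5 of 44 groups of 4 libraries examined, 1 library lay far from the other 3, with 2.2 such groups given by chance at 1 in 20. The measure is the gap to the nearest library over the whole range. Piezo2 was far lower in wild type library 4 at 17.5 CPM than in the other 3 at 39.5 to 42.3 CPM, a gap of 0.885 of the range. Among Egr4-/- libraries the mean of the other TRP channels was lowest in library 2 at 2.09 log2 CPM, with 2.69 to 2.77 in the others (0.875). In wild type library 4 that mean was lower still, at 1.84 log2 CPM. Trpc4, Trpm6, Trpv6 and Mcoln2 of that list were at 0 in at least 1 library, which pulls such a mean down. Its summed FPKM was 94.8, 90.0, 102 and 121 in Egr4-/- libraries 1 to 4. Pericyte and smooth muscle markers were highest in Egr4-/- library 2 at 5.60 log2 CPM, with 2.88 to 3.31 in the other 3 (0.840). Endothelial markers were highest in wild type library 2 among wild type libraries at 5.08 log2 CPM, with 4.50 to 4.55 in the other 3 (0.910). Among wild type libraries the Purkinje cell and central neuron list was highest in library 4 at 3.32 log2 CPM, with 2.49 to 2.55 in the other 3 (0.934). Most of that list's summed FPKM in wild type library 4 was Calb1, at 163 of 175. In wild type libraries 1 to 3 the sum was 20.6, 18.7 and 17.9 FPKM, with Calb1 at 9.54, 9.08 and 6.73 FPKM.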

How the results depend on the processing

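Over all genes 1 was called, 0 with RLE factors, 0 with library size alone, 10 with the likelihood ratio test, 14 with DESeq2, 0 without library 4 of both genotypes, and 0 to 1 with single libraries left out. No channel gene was called in any of 19 alternatives, with adjusted p between 0.469 and 1.00. The number of channel genes with an unadjusted exact permutation p under 0.05 was 0. It was 0 to 1 with single libraries left out, where the 1 was Piezo2 without wild type library 4. That library stands out by its own Piezo2 value, so leaving it out fixed that p. With single libraries left out, Trpv2 ran from -0.29 to 0.032, positive without Egr4-/- library 3, and Trpm2 from -0.55 to 0.17, positive without wild type library 4. The labels do not say that replicate numbers mark a shared litter or day. Same-numbered libraries correlated by 0.06, 0.15, 0.00 and 0.06 in their deviations from the group means. Differently numbered libraries correlated by -0.14 to 0.07, and whether same-numbered ones share more than a number is not known. With the replicate block, 2 genes were called and Piezo2 stood at -0.65 (edgeR adjusted p = 0.514). With that block 1452 genes had an unadjusted edgeR p under 0.05, against 731 without it. The cause of these shifts was not tested. Of the 6 channel genes, limma-voom moved Trpa1 furthest, to -2.13. Low counts limit Piezo1 and Trpa1, the first with 14 to 383 counts per library and the second with 0 to 343. They limit Trpv4 as well, with 31 counts in Egr4-/- library 4, 43 in wild type library 3 and at most 786.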
